A study of Mus musculus with 8 samples.

Results

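The genes described here fold, export and destroy proteins in the endoplasmic reticulum, or sense the load of unfolded protein in it. The set was a fixed list of 34 mouse genes: chaperones, disulfide enzymes, degradation and translocation genes, and the stress sensors. A gene counted as measured where a probe set of the array carried its symbol and no other, and where several did, the brightest on average was taken. That gave 33 measured genes of 22180 in all. Of these, 31 carried the listed symbol and 2, Ero1l and Ero1lb, carried their current symbols Ero1a and Ero1b. Pdia4 shared its probe set with a microRNA gene and was not analysed here.

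Secreted and membrane proteins enter the endoplasmic reticulum through the Sec61 channel, are folded there by Hspa5 (BiP) and Hsp90b1 (GRP94), glycosylated, and cross-linked by protein disulfide isomerases. Misfolded proteins are drawn back to the cytosol by the Sel1l and Syvn1 complex and degraded. When unfolded protein builds up, the sensors Ern1 (IRE1), Atf6 and Eif2ak3 (PERK) start the unfolded protein response, in which ATF6 and the spliced form of XBP1 induce chaperone genes and PERK acts through ATF4. Hepatocytes secrete most plasma proteins and keep a large endoplasmic reticulum.

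Liver RNA of 8 mice of the C57BL/6N strain, taken at 27 days of age, was measured with 1 array per mouse. The 4 knockout mice carried an albumin-driven Cre transgene and floxed copies of Sco1 on both chromosomes. Sco1 encodes a mitochondrial copper chaperone needed to assemble cytochrome c oxidase. The other 4 mice are called wild-type here. Among them the genotype labels gave mice 1 and 3 the same Cre transgene with 1 floxed and 1 wild-type allele of Sco1. Mice 2 and 4 had floxed alleles and no Cre by these labels, whereas the titles call all 4 floxed on both chromosomes. The albumin promoter drives Cre in hepatocytes, so other liver cells of the knockout may keep Sco1, but its loss by cell type was not measured. In whole liver fewer cells of a type and less RNA per cell cannot be told apart. The labels gave no sex, litter or time of collection.

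All values are log2 RMA values, in which a step of 1 is a 2-fold step. Array medians lay between 5.79 and 5.89. Sco1 (probe set 17250948) read 7.59 ± 0.10 in knockout and 8.00 ± 0.15 in wild-type livers (SD, n = 4 each), a difference of -0.41 ± 0.09 (SE), and the groups did not overlap. Over all genes it did not pass (limma, adjusted p = 0.0633), and the exact permutation test of this gene gave the smallest p that 4 against 4 allow, 0.0286. Which exons its probe set reads was not known. Across all genes 96 rose and 159 fell in the knockout (limma with Benjamini-Hochberg adjustment), or 86 and 271 with each array centred on its median.

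Some of the members hold a known promoter sequence, which the rule for the list did not read. The list was picked as genes of the unfolded protein response, which acts through this sequence. Its share among the members is therefore a description and no independent trait. The endoplasmic reticulum stress element is CCAAT, then 9 bases of any kind, then CCACG, and is bound at its left end by NF-Y and at its right end by ATF6 or XBP1. It was searched on both strands from 250 bases before to 50 bases after each gene start in RefSeq promoters of the build GRCm38.p6. Of 29 members with an entry, 10 held an exact copy, against 37 of all 27025 genes (0.119% of all 32851 promoters in the table) and 0 of 99 other genes of the pathway. Hsp90b1 held 2 copies. The shorter type II element, ATTGG and CCACG with 1 base of any kind between them, was present in 0.037% of all promoters and in those of Dnajb11 and Herpud1, and no member held both elements. The stretches that follow were picked among the 10 holders of the stress element, apart from that of Herpud1 for the type II element. They are those of Hspa5 and Canx, which differed least between the groups, of the 5 that differed most, and of Hsp90b1 with its 2 copies. Each is upstream of the gene start, on the gene's strand, with the fixed letters of the element in capitals. CGTGG followed by ATTGG is the stress element read on the opposite strand, and ATTGG followed by CCACG in Herpud1 is the type II element on the gene's own strand.
Hspa5 (chr2:34772005-34772063, plus strand): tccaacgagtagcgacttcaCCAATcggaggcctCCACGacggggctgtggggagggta
Hsp90b1 (chr10:86705513-86705676, minus strand): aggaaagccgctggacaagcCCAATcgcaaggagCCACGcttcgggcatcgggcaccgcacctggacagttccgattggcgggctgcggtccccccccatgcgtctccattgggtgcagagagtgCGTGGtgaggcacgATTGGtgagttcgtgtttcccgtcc
Dnajc3 (chr14:118937807-118937865, plus strand): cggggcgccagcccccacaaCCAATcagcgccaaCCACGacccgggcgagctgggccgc
Creld2 (chr15:88819500-88819558, plus strand): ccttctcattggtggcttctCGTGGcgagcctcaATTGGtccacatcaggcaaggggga
Canx (chr11:50325780-50325838, minus strand): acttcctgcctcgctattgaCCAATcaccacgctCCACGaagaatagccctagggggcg
Pdia6 (chr12:17266471-17266529, plus strand): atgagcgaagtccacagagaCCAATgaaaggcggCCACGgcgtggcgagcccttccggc
Ero1b (chr13:12565662-12565720, plus strand): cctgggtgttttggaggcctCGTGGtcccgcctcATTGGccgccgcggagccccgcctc
Syvn1 (chr19:6046512-6046570, plus strand): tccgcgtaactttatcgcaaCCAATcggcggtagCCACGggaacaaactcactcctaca
Herpud1 (chr8:94386357-94386407, plus strand): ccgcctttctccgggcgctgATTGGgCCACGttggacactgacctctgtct

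**Figure D1:**
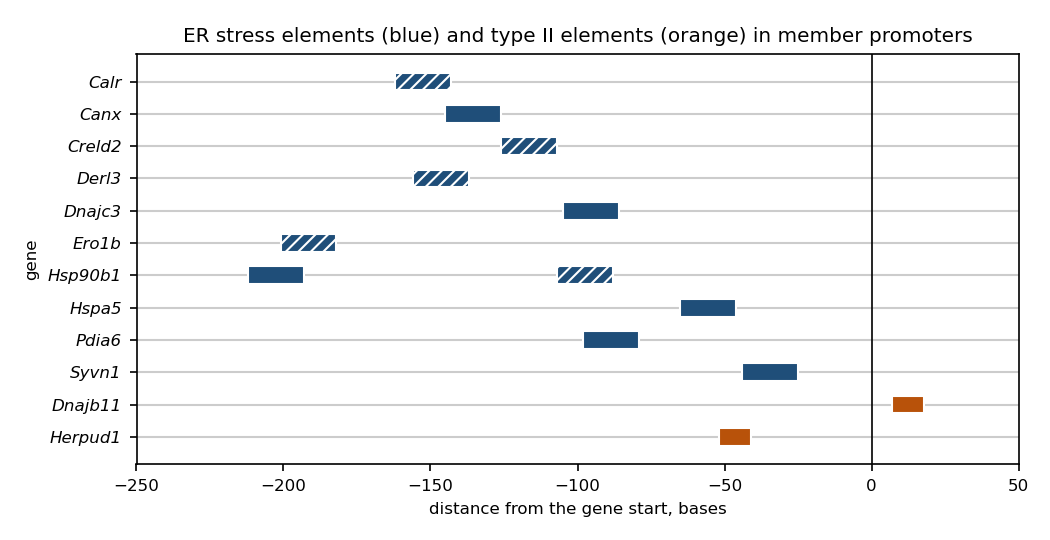
Position of exact elements in the promoters of the 12 members that hold one. The x axis is the distance from the gene start in bases, each bar is 1 element, and hatched bars lie on the opposite strand; blue elements start between -212 and -44 bases, and the type II element of Dnajb11 lies after the start, at 7 to 17 bases.

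A match describes these letters only, and does not show that a factor was bound in these livers. The 10 members with the stress element had differences between knockout and wild-type of -0.46 to -0.04, with a median of -0.20. The 16 measured members with a promoter entry and neither element ran from -0.56 to 0.14, with a median of -0.12. These ranges overlap and were not tested against each other.

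Knockout and wild-type livers were compared for each member in turn. Most members lay lower in the knockout, by little, and none passed the threshold over all genes. Of 33 members 29 had a negative difference, against 42.8% of all genes, and the median difference was -0.15, against 0.03 over all genes. Array means of the members were 10.43 to 10.84, against 6.78 to 6.81 over all genes, so the shares over all genes come mostly from dimmer genes. Called members numbered 0 lower and 0 higher (limma, adjusted p under 0.05), where 0.717% of all genes were called lower and 0.433% higher. At an unadjusted p under 0.05 there were 12 lower members and 0 higher ones, where 8.06% of all genes were lower and 8.61% higher. An ordinary fit without moderation of the variance called 0 members, where it called only 4 higher and 4 lower of all 22180 genes. Groups did not overlap for 3 members, Pdia6, P4hb and Sec61a1, all lower, and for 0 higher, against 5.49% and 5.26% of all genes. At 3 of 33, the lower count was not read as a result about the members. The median moved to -0.09 when knockout mouse 1 was left out.

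**Figure D2:**
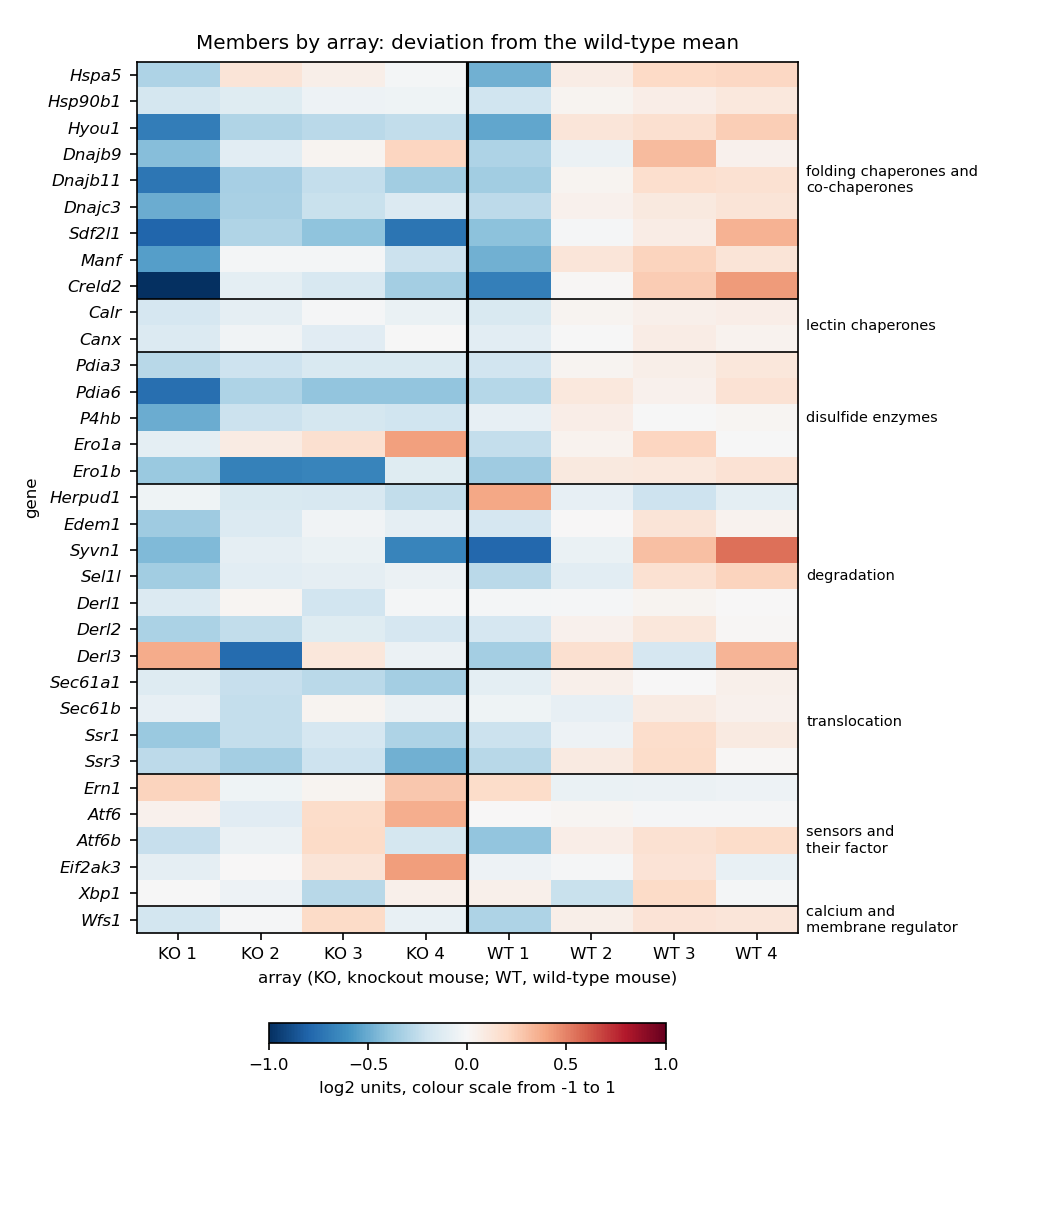
Each row is 1 of 33 members and each column 1 array; colour gives the deviation from the mean of the 4 wild-type arrays in log2 units, from -1 (blue) to 1 (red). Knockout mouse 1 and wild-type mouse 1 are blue in most rows of the folding chaperones, where their mean deviations are -0.57 and -0.41, and the sensors show little blue.

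Folding chaperones and their helpers had the lowest median of the larger role groups, -0.30, and all 9 were negative. Sdf2l1, a partner of the co-chaperones in the lumen, had the largest difference of any member. It read 10.40, 10.89, 10.79 and 10.46 in knockout mice 1 to 4 and 10.78, 11.18, 11.27 and 11.54 in wild-type mice 1 to 4. The difference was -0.56 ± 0.16 (SE), which puts the knockout at 68.0% of the wild-type (limma, adjusted p = 0.125). Wild-type mouse 1 lay below knockout mice 2 and 3, so the groups overlapped. Dnajb11, which feeds unfolded chains to Hspa5, read 9.94, 10.33, 10.43 and 10.32 in the knockouts and 10.32, 10.69, 10.83 and 10.82 in the wild-types. Its difference was -0.41 ± 0.13 (limma, adjusted p = 0.167), and again only wild-type mouse 1 fell within the knockout range.

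Hyou1, a large HSP70-type chaperone that also exchanges nucleotides on Hspa5, read 10.59, 10.98, 11.01 and 11.04 in the knockouts. In the wild-types it read 10.76, 11.40, 11.44 and 11.53, a difference of -0.38 ± 0.16 (limma, adjusted p = 0.279). Dnajc3 (p58IPK), another J-domain co-chaperone, differed by -0.30 ± 0.11 (adjusted p = 0.21). Creld2, a disulfide isomerase-like protein and known stress target, varied most between mice of this role group: 10.09 to 11.00 in the knockouts and 10.41 to 11.52 in the wild-types. Its difference of -0.40 ± 0.25 therefore had an interval from -0.94 to 0.14 (95%, adjusted p = 0.435).

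The central chaperones of the lumen, Hspa5 and Hsp90b1, differed little. Hspa5 read 10.58, 11.02, 10.95 and 10.87 in the knockouts and 10.41, 10.97, 11.09 and 11.10 in the wild-types. The groups overlapped fully, with a difference of -0.04 ± 0.15 and an interval from -0.37 to 0.30 (limma, adjusted p = 0.931). Hsp90b1 differed by -0.10 ± 0.09, with an interval from -0.29 to 0.09. Dnajb9 (ERdj4), which restrains Ern1, stood at -0.07 ± 0.15, and Manf, a secreted regulator of Hspa5, at -0.20 ± 0.16. Sdf2l1 and Hspa5, both textbook targets of the response, thus stood at opposite ends of the group. Whether their differences differ from each other was not tested.

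The lectin chaperones calreticulin (Calr) and calnexin (Canx), which hold glycoproteins while they fold, overlapped between the groups. Calr differed by -0.09 ± 0.08 with an interval from -0.26 to 0.09, and Canx by -0.07 ± 0.07 with an interval from -0.23 to 0.09.

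Disulfide enzymes held the member of smallest adjusted p. Pdia6, an isomerase that also tunes Ern1, read 10.39, 10.84, 10.75 and 10.75 in the knockouts and 10.86, 11.25, 11.19 and 11.29 in the wild-types. The groups did not overlap, with 10.84 and 10.86 as the nearest values, and the knockout mean was 72.5% of the wild-type. The difference was -0.46 ± 0.12 (limma, adjusted p = 0.0951). P4hb, the archetypal isomerase, read 12.25 to 12.57 in the knockouts and 12.66 to 12.81 in the wild-types, also without overlap, and differed by -0.27 ± 0.09 (adjusted p = 0.169). Pdia3, which works on glycoproteins with the lectin chaperones, differed by -0.20 ± 0.08 (adjusted p = 0.274).

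Ero1a and Ero1b are the oxidases that recharge the isomerases, and their differences were not tested against each other. Ero1b, also known from secretory cells such as the pancreatic islet, read 9.63, 9.33, 9.34 and 9.88 in the knockouts and 9.65, 10.10, 10.11 and 10.15 in the wild-types. Wild-type mouse 1 again lay inside the knockout range, and the difference was -0.46 ± 0.15 (limma, adjusted p = 0.163). Ero1a, which is also induced by hypoxia, was among the 4 members with a positive difference, 0.14 ± 0.12, with an interval from -0.13 to 0.41 (adjusted p = 0.589). Its other probe set, which did not enter the fit, differed by 0.19.

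Degradation genes were all negative, 7 of 7, with a smaller median of -0.15. Derl2, a subunit of the channel that draws proteins back to the cytosol, had the smallest p of the group at -0.21 ± 0.08 (limma, adjusted p = 0.243), and its second probe set differed by -0.01. Syvn1 (HRD1), the ubiquitin ligase of the pathway, read 9.59 to 10.19 in the knockouts and 9.47 to 10.80 in the wild-types. Its difference was -0.32 ± 0.25 with an interval from -0.86 to 0.23. Sel1l, the partner of Syvn1, stood at -0.15 ± 0.12 and Edem1, which hands over misfolded glycoproteins, at -0.15 ± 0.10.

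Herpud1, a scaffold of the same complex and a target of both ATF4 and ATF6, read 12.01, 11.90, 11.89 and 11.80 in the knockouts and 12.44, 11.97, 11.84 and 11.95 in the wild-types. The wild-type spread came mainly from mouse 1, which here was the highest array. Its difference was -0.15 ± 0.12, and -0.02 without that mouse. Derl1 stood at -0.08 ± 0.07. Derl3, the isoform most tied to the stress response, read 6.82 to 7.96 in the knockouts and 7.25 to 7.93 in the wild-types, and differed by -0.09 ± 0.22.

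Translocation genes were lower in 4 of 4 cases, with a median of -0.25. Sec61a1, the pore of the channel, read 12.01, 11.91, 11.87 and 11.80 in the knockouts and 12.04, 12.19, 12.14 and 12.19 in the wild-types. The groups did not overlap, with 12.01 and 12.04 as the nearest values, and the difference was -0.24 ± 0.08 (limma, adjusted p = 0.166). The translocon-associated proteins Ssr1 and Ssr3, which help chains through the channel, differed by -0.27 ± 0.10 and -0.32 ± 0.11 (adjusted p = 0.203 and 0.173). For Ssr1 a second probe set differed by -0.42. Sec61b, the small subunit, read 6.05 ± 0.11 and 6.14 ± 0.07, near the array medians.

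None of the sensors passed the threshold, and their differences were small in both directions. Ern1 read 10.77, 10.51, 10.58 and 10.82 in the knockouts and 10.73, 10.48, 10.49 and 10.50 in the wild-types, a difference of 0.12 ± 0.10 with an interval from -0.09 to 0.33. Atf6 stood at 0.12 ± 0.10 and Eif2ak3 at 0.11 ± 0.11. In both genes knockout mouse 4 was the highest of all arrays, at 10.70 and 8.79. Atf6b, the paralog of Atf6, differed by -0.06 ± 0.14. Adjusted p for these genes lay between 0.561 and 0.847 (limma).

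Xbp1, the transcription factor spliced by Ern1, read 11.87, 11.82, 11.59 and 11.92 in the knockouts and 11.92, 11.65, 12.06 and 11.85 in the wild-types. The groups overlapped, with a difference of -0.07 ± 0.11 and an interval from -0.30 to 0.16. The value is for the whole gene: a probe set summary does not separate spliced from unspliced RNA. Wfs1 (wolframin), a calcium and stress regulator of the membrane, stood at -0.02 ± 0.12.

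**Figure D3:**
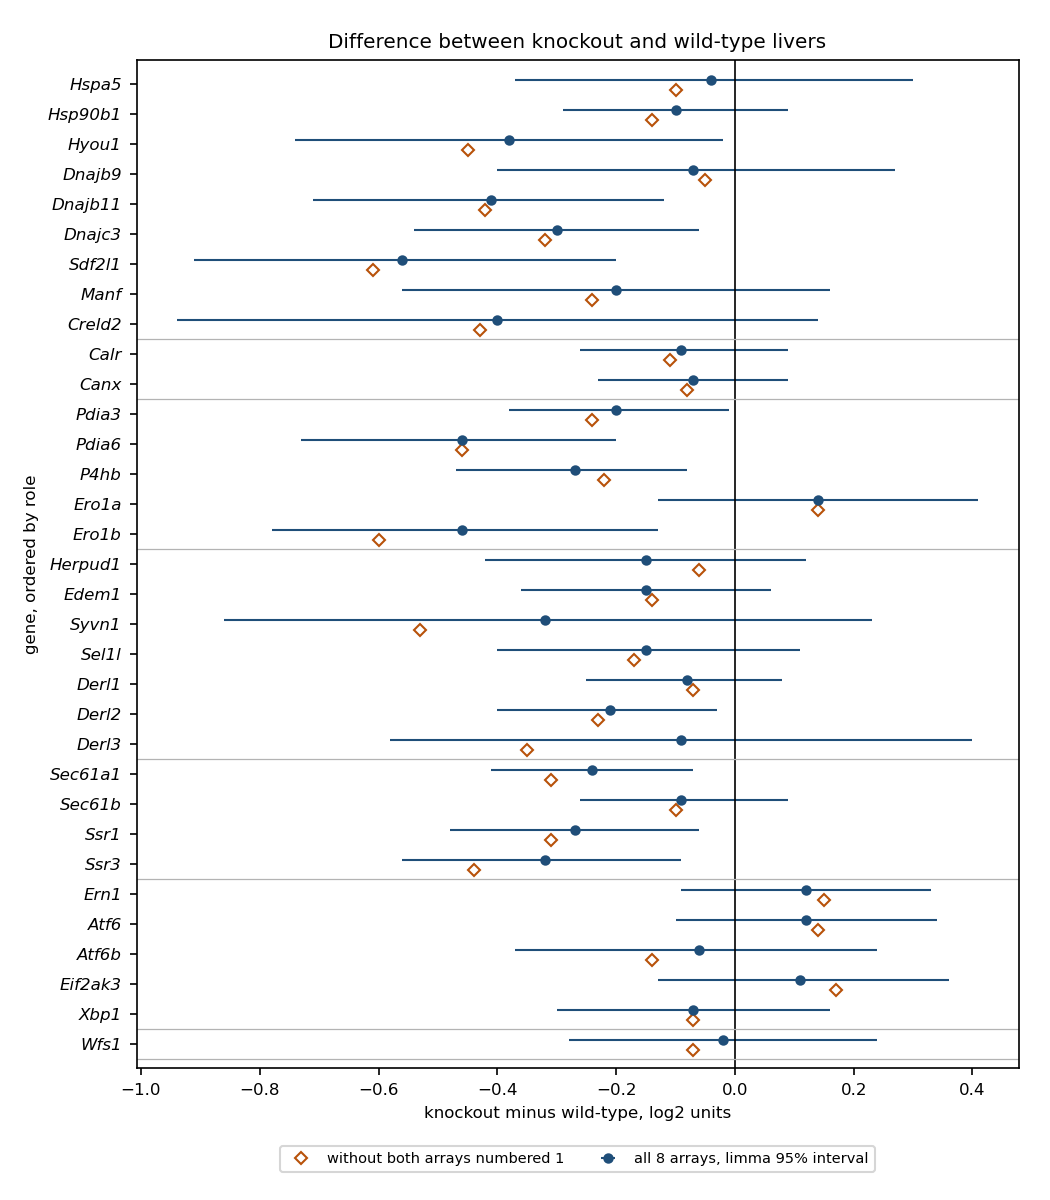
Difference between the knockout and wild-type means for each of 33 members, in log2 units, with limma's 95% interval over all 8 arrays (filled circles) and the difference without both arrays numbered 1 (open diamonds). Filled circles run from -0.56 (Sdf2l1) to 0.14 (Ero1a), and the diamonds of Hyou1, Ero1b and Syvn1 lie further to the left, at -0.45, -0.60 and -0.53.

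Mouse 1 of each group was low for most members, and the same arrays were low in related lists. Wild-type mouse 1 was the lowest of the 4 wild-types in 27 of 33 members, against 26.3% of all genes. Knockout mouse 1 was the lowest of the 4 knockouts in 22 of 33 members, against 27.2% of all genes. The mean deviation of the members from the wild-type mean was -0.30, -0.17, -0.10 and -0.12 in knockout mice 1 to 4 and -0.23, 0.02, 0.10 and 0.11 in wild-type mice 1 to 4. Other translocation genes had -0.32 in knockout mouse 1 and -0.16 in wild-type mouse 1, and N-glycosylation genes -0.29 and -0.14. For the 9 folding chaperones the mean deviation was -0.57, -0.17, -0.14 and -0.21 in the knockouts and -0.41, 0.04, 0.17 and 0.20 in the wild-types.

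Both mice numbered 1 also stood apart in several, not all, of the clock genes, which follow the time of day. Dbp, an output of the clock, read 9.66 in knockout mouse 1 and 9.86 in wild-type mouse 1, and 6.87 to 7.33 in the other 6 mice. Per1, a core clock repressor, read 9.11 and 8.68 in these mice and 7.65 to 8.68 in the others, so it did not set wild-type mouse 1 apart. Cry2 read 8.06 and 8.33 in these mice and 7.43 to 8.10 in the others, so it did not set knockout mouse 1 apart. Arntl, a core clock activator, read 8.68 and 8.57 in these mice and 9.82 to 10.19 in the others. Cytosolic heat shock chaperones showed the same 2 arrays low, with mean deviations of -0.17 and -0.24, while the other 6 arrays lay between -0.05 and 0.12. The part of the time of day in the chaperone values was not tested, since the labels give no collection time.

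**Figure D4:**
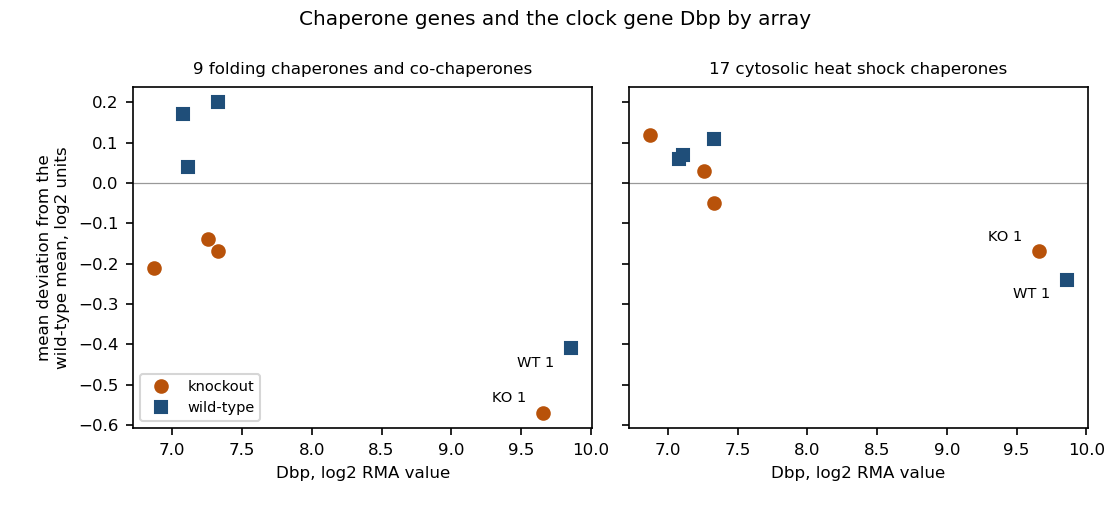
Mean deviation from the wild-type mean in log2 units (y axis) against the log2 value of Dbp (x axis), 1 point per array, circles for knockout and squares for wild-type; left, 9 folding chaperones of the endoplasmic reticulum, right, 17 cytosolic heat shock chaperones. Both arrays numbered 1 sit at Dbp values of 9.66 and 9.86 and are low in both panels, and among the other arrays the groups are separate on the left and mixed on the right.

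Without both arrays numbered 1, groups of 3 against 3 did not overlap for 17 lower members and for 1 higher member, Ern1, against 10.2% and 11.4% of all genes. The 17 were 7 folding chaperones, Calr, 4 disulfide enzymes, Edem1, Derl2, Sec61a1, Ssr1 and Ssr3. At an unadjusted p under 0.05 there were 15 lower members, against 7.16% of all genes, and the median difference was -0.17. None of the members passed the threshold (limma, 0 called, where 0.293% of all genes were called). Hyou1 differed by -0.45 ± 0.08 (adjusted p = 0.0675), Dnajb11 by -0.42 ± 0.09 (0.0945), Sdf2l1 by -0.61 ± 0.14 (0.113) and Pdia6 by -0.46 ± 0.08 (0.0641). These arrays were left out with their values known, and taking away a low wild-type array can raise the count of lower members by itself, so the counts are a description. The errors of Hyou1 and Dnajb11 were smaller with 6 arrays than with 8, while Hspa5 still overlapped, at -0.10 ± 0.09.

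The control mice differed by genotype as well as by number. In a limma fit with 3 groups, members had a median of -0.11 in the knockout against controls with Cre and -0.21 against controls without Cre, with 25 and 28 of 33 negative. Called members numbered 0 in both contrasts, where 0.131% and 0.212% of all genes were called. At an unadjusted p under 0.05 the counts were 1 and 11, against 11.8% and 11.5% of all genes. The mean member deviation was -0.23 and 0.10 in the 2 controls with Cre, mice 1 and 3, and 0.02 and 0.11 in the controls without Cre. With 2 mice in each class, genotype and single mice cannot be told apart, and the cause of the gap between the contrasts was not tested. Between both classes of control 0 members and 0 of all genes were called, and 0 members against 3.03% of all genes had an unadjusted p under 0.05.

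The wider secretory pathway was examined through 91 further measured genes of folding, degradation, translocation, N-glycosylation and export to the Golgi. Of these 82 had a negative difference, against 42.8% of all genes, with a median of -0.14. In this group 2 fell and none rose, where 0.717% of all genes fell and 0.433% rose. Fkbp11, a prolyl isomerase of the endoplasmic reticulum, read 7.57, 7.57, 7.66 and 7.77 in the knockouts and 8.10, 8.32, 8.21 and 8.09 in the wild-types. It fell by 0.54 ± 0.08 to 68.9% of the wild-type (limma, adjusted p = 0.0171), with mouse 1 of each group close to its fellows. Uggt1, which tests whether glycoproteins are folded, fell by 0.47 ± 0.10 (adjusted p = 0.0497). Uggt1 no longer passed when any single array was left out, apart from wild-type mouse 1. The Fkbp11 call was lost without wild-type mouse 2 or 3 (adjusted p up to 0.0554) and without both arrays numbered 1 (0.0659).

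Several partners of the members came near the threshold in the same direction. Sec61g, the third subunit of the Sec61 channel, differed by -0.65 ± 0.14, the signal peptidase subunit Sec11c by -0.54 ± 0.12, and the isomerase Pdia5 by -0.50 ± 0.11 (limma, adjusted p = 0.0543, 0.0543 and 0.051). All 19 other translocation and signal peptidase genes were negative, with a median of -0.17, and 14 of 15 N-glycosylation genes, with a median of -0.19. The oligosaccharyltransferase subunits Rpn1 and Rpn2 differed by -0.36 ± 0.10 and -0.31 ± 0.09. Other degradation genes had a median of -0.09, with Vcp, the ATPase that extracts proteins, at -0.37 ± 0.09, and Golgi export genes had a median of -0.10, with the vesicle protein Bet1 at -0.46 ± 0.11. Creb3l3, a liver transcription factor tethered in the membrane like Atf6, stood at -0.34 ± 0.07 (adjusted p = 0.0535).

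Among 12 measured genes downstream of PERK and ATF4, 2 rose, none fell and 10 did not pass, where 0.433% of all genes rose. Their median was 0.17, and 3 of 12 were negative, against 42.8% of all genes. Nupr1 and Asns, asparagine synthetase, were those 2, at 2.41 ± 0.24 and 0.67 ± 0.13 (limma, adjusted p = 0.00226 and 0.0437). The Asns call was lost with any 1 array left out. Of 15 measured regulators of the response, listed apart, none passed, with a median of -0.07. Among them Ddit3 (CHOP), a transcription factor induced through ATF4, read 8.03, 7.65, 8.16 and 9.05 in the knockouts and 7.38, 7.67, 7.18 and 7.39 in the wild-types. Its difference of 0.82 ± 0.24 had an adjusted p of 0.131, and knockout mouse 4 was the highest array. Trib3, which dampens the response, differed by 0.76 ± 0.19, Atf3 by 0.60 ± 0.20 and Vldlr by 0.61 ± 0.14 (adjusted p = 0.081, 0.17 and 0.0565), and Atf4 itself by 0.08 ± 0.08. Chac1 was level, at -0.01. Proposed substrates of the RNA-cutting activity of Ern1 had a median of 0.06 over 5 measured genes, with none past the threshold and Bloc1s1, the best known, at -0.09 ± 0.08.

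**Figure D5:**
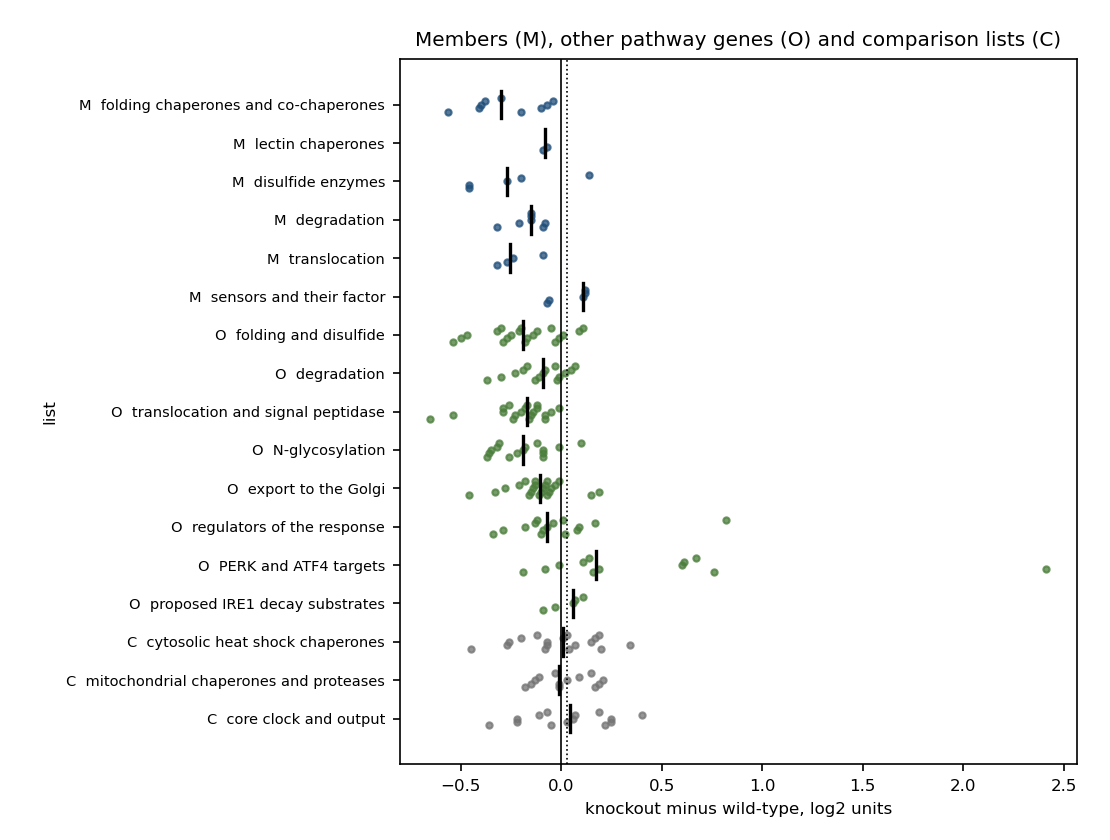
Each point is 1 gene and its x position the difference between knockout and wild-type in log2 units; rows are lists, with members in blue, other pathway genes in green and comparison lists in grey. Black bars mark list medians and the dotted line the median of all genes, 0.03; medians run from -0.30 for folding chaperones to 0.17 for PERK and ATF4 targets, where Nupr1 stands at 2.41.

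Chaperones of other compartments gave values for comparison. Of 17 cytosolic heat shock chaperones 8 were negative, with a median of 0.01 and none past the threshold. Their differences ran from -0.45 to 0.34. Groups did not overlap for 0 lower and 1 higher, against 5.49% and 5.26% of all genes. Without both arrays numbered 1 these counts were 3 lower and 1 higher, against 10.2% and 11.4% of all genes. Of 13 mitochondrial chaperones and proteases 7 were negative, with a median of -0.01 and none past the threshold. Groups did not overlap for 3 of the 13, Hspa9, Dnaja3 and Afg3l2, all higher, and for 0 lower, against 5.26% and 5.49% of all genes. Mortalin, Hspa9, the mitochondrial relative of Hspa5, read 12.18 to 12.34 in the knockouts and 11.95 to 12.11 in the wild-types, a difference of 0.19 ± 0.07 (limma, adjusted p = 0.231).

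Markers of the liver's cell types were set beside these results. All 12 hepatocyte markers were measured and none passed, with mean log2 levels of 12.52 to 12.65 in the knockouts and 12.60 to 12.73 in the wild-types. The lowest and highest means, of knockout mouse 4 and wild-type mouse 4, went with the lowest and highest value of Ass1 (6.70 and 8.42). Groups did not overlap for 2 of the 12, Serpina1a (-0.32) and Fgb (-0.09), both lower, against 5.49% of all genes. Albumin read 13.83 to 13.88 on all arrays, at the top of the deposited range, so its level values say little about hepatocyte content. Kupffer cell and macrophage markers had positive differences in 10 of 10 cases, where 42.8% of all genes were negative, and none passed, with a median of 0.14 and mean levels of 9.58 to 10.11 against 9.45 to 10.00. Cd68, a macrophage marker, had the smallest adjusted p of that list, 0.0921 (limma), at 0.36 ± 0.09 without overlap of the groups. Lymphocyte markers had positive differences in 8 of 8 cases and none passed, with a median of 0.19 and mean levels of 6.48 to 6.69 against 6.30 to 6.39. Plasma cell markers, of interest because plasma cells are rich in this gene set, had mean levels of 5.54 to 5.56 against 5.44 to 5.63. Of these 6 markers 2 had a negative difference, where 42.8% of all genes did, and none passed, with a median of 0.07. Jchain read 3.69 to 4.20, below the array medians on all arrays. Mzb1 and Pou2af1 read 5.90 to 6.34 and 6.07 to 6.58, above them on all arrays. Pancreatic acinar markers had mean levels of 5.90 to 6.14 against 5.82 to 6.03. Of endothelial, stellate, cholangiocyte, neutrophil and erythroid markers none passed, with list medians of 0.06, -0.14, 0.12, 0.13 and 0.01. The part of cell composition in the members' values was not tested. The mean deviation of 3 Y-linked genes from the wild-type mean was -1.36 in knockout mouse 4 and between -0.12 and 0.14 on all other arrays. Without knockout mouse 4 the members' median was -0.18.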

How the data were processed

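Per the submitters' processing notes, the authors made the deposited log2 values with RMA (R package oligo version 1.24): background correction, quantile normalization and summary of probes. RMA pulls large differences toward 0. The log2 scale was inferred from the method and from the range of 1.28 to 13.88. The chip definition and genome build are not given in the sources used here. Platform annotation gave 1 symbol to 23521 of 39137 probe sets, several to 1814 and none to 13802.

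Differences, knockout minus wild-type, were fitted by a moderated linear model (limma 3.58.1 under R 4.3.3, two-sided tests) and adjusted by Benjamini-Hochberg over 22180 genes at 0.05. Errors of differences are limma standard errors, other errors SDs over 4 mice. The limma step was tested on simulated data. The number of arrays limits the precision. Members and lists were chosen with earlier results of these data known. By rule, genes to name were all members, Sco1, the clock genes Dbp and Per1, the Y-linked genes, and of each other list the 3 genes of smallest adjusted p and any past the threshold. Of the lists outside the members the text names only some of these, chosen after their values were seen. Atf4, Chac1, Trib3, Atf3, Arntl and albumin were named outside that rule, after their values were seen. Promoters were read from a RefSeq table, and protein sequences were not analysed here. Python version 3.11.15, pandas version 2.3.3 and matplotlib version 3.10.9 were used.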

Additional observations from a re-analysis of the deposited data

Results flagged for a closer look

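A value is given here where it lay far from the other arrays of its group of 4, by Dixon's test of the gap against the range at the 95% level. Chance gives about 1 such group in 20. Of 190 groups over 95 genes 14 met this, and 6 of the 66 groups of members did. Among members, Hyou1 was low in knockout mouse 1 (10.59, next 10.98) and in wild-type mouse 1 (10.76, next 11.40). Wild-type mouse 1 was also low for Manf (6.82, next 7.42) and Ero1b (9.65, next 10.10), and high for Ern1 (10.73, next 10.50). P4hb was low in knockout mouse 1 (12.25, next 12.53). Outside the members, knockout mouse 1 was low for Sec61g (9.27), Copg1, a coat protein of Golgi vesicles (9.87), and Sox9, a cholangiocyte marker (7.78), and high for Edem2, a degradation gene (10.49). Wild-type mouse 1 was low for Rpn1 (10.58) and wild-type mouse 2 high for Pdia5 (11.04). Knockout mouse 4 was low for the hepatocyte marker Serpina1a (10.75), and knockout mouse 3 high for the endothelial marker Cdh5 (10.97).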

How the results depend on the processing

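Under 23 alternatives the median difference of the members stayed negative (-0.21 to -0.09) and 0 members were called higher. Called lower were 0 members, except under the replicate block, where 1 passed, Pdia6 (limma, adjusted p = 0.0402), where 0.64% of all genes were called lower. The labels do not say whether mouse numbers pair the samples. Over all genes, deviations of same-numbered mice correlated at 0.27, -0.02, 0.03 and -0.10, and 2 of 8 arrays correlated best with their own number. A shared litter or collection was not tested. With the block the error of Hyou1 was 0.09, against 0.16 without it. Counts of all genes higher and lower were 68 and 142 with that block. They were 159 and 300 with a trended robust variance, 155 and 301 without the dimmest genes, 28 and 37 without both arrays numbered 1, and 4 and 4 in the ordinary fit. Against controls without Cre alone they were 7 and 9, and against controls with Cre alone 4 and 2. The lower count was 271 with centred arrays, 319 in the brighter part of the genes and 245 with array weights. The higher count was 45 with the Y-linked level as covariate and 58 with both control classes in 3 groups. Leaving out 1 array gave 29 to 65 higher and 60 to 119 lower. The difference of Sco1 ran from -0.46 to -0.34, with adjusted p up to 0.313, and did not pass under 20 alternatives. At -0.41 it passed with a trended variance (adjusted p = 0.0464), in the brighter genes (0.036) and without the dimmest genes (0.0411).

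Members of small difference changed sign. Wfs1 stood at 0.03 after a further quantile normalization, 0.01 with the Y-linked covariate and 0.07 against controls with Cre. Against those controls Hspa5 stood at 0.10, Derl3 at 0.17, Atf6b at 0.06, the clock gene Ciart at -0.06 and the acinar marker Cela1 at 0.09, and Xbp1 at 0.05 against controls without Cre. With 1 array left out, Hspa5 ran from -0.20 to 0.06, Dnajb9 from -0.17 to 0.05, Derl3 from -0.24 to 0.14, Wfs1 from -0.12 to 0.04, Cela1 from -0.12 to 0.04 and the erythroid marker Slc4a1 from -0.13 to 0.09. Slc4a1 stood at -0.02 with centred arrays, -0.04 with the Y-linked covariate and -0.20 against controls without Cre. The cause of these changes was not tested. The calls of Asns, Uggt1, Fkbp11 and Nupr1 were lost under 14, 15, 6 and 3 alternatives.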
